A study of Mus musculus with 6 samples.

Results

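A set of 383 binding sites of the 3KR form of p53 at closely spaced gene pairs was examined in mouse epidermal basal progenitors. Each is a peak summit of the 3KR list that had no summit of the wild-type (WT) list within 200 bp and that lay within 1 kb of an annotated end of at least 2 different protein-coding genes. They make up 6.52% of the 5872 3KR summits with no WT summit so near, called 3KR-only here, and the 3KR list holds 6753 summits in all, against 1668 in the WT list. The ChIP-seq experiment compared mice of the genotypes labelled p53WT and p533KR, with 3 libraries of each, 6 in all, and no other allele is given. The members were chosen by the presence of a summit in the 3KR list and its absence from the WT list, so those values describe them and are no finding. All mice were 8 weeks old, cells were sorted as alpha-6 integrin high and EpCAM positive, and the digestion medium of both genotypes contained 25 µM Nutlin-3a, which blocks the contact between MDM2 and p53 and so stabilises p53.

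The 2 lists limit what follows. Each is assigned to all 3 libraries of its genotype, so no value of a single library, no spread between animals and no sequencing depth can be given, and the labels do not say how many animals a library holds. The names of the WT summits carry the number 1 as if from a single library, and those of the 3KR summits carry the word Doxo, which does not match the Nutlin-3a of the labels. Whether the 3KR cells differed from the WT cells in treatment, in depth or in the number of libraries behind the list cannot be told apart from the genotype. No p-value was computed, since sites and genes are not replicates, and every interval covers counting error only.

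p53 binds DNA as a tetramer on a pair of similar short repeats, each built around a CATG or similar core. From general knowledge of the allele, 3KR p53 carries arginine in place of lysines of its DNA-binding domain that can be acetylated, and it is known for losing much of the activation of arrest and apoptosis genes while keeping other functions. Closely spaced genes often stand head to head, with their starts on opposite strands and a short shared promoter between them. Such bidirectional promoters usually lie in CpG islands, lack a TATA box, are bound by factors such as NRF1, SP1, NF-Y, ETS proteins and BANP, and often serve housekeeping genes of energy metabolism, RNA processing and DNA repair.

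The DNA between the facing starts is shown for 10 sites, read on the plus strand from the RefSeq promoter windows of assembly GRCm38.p6, which corresponds to mm10. The first 6 pairs show the repeated elements described at the end of the results, and the other 4 show promoters of a p53 target and of genes of the DNA damage response. Capitals mark matches on either strand to the letters GGGCGG (GC box), CCAAT (NF-Y), TGACGTCA (CRE), CACGTG (E-box), and also to a relaxed form of the NRF1 element, in which base 5 is free, and to the palindrome with CGCG at its centre that BANP binds.
Sdha and Ccdc127, chr13:74350241-74350316: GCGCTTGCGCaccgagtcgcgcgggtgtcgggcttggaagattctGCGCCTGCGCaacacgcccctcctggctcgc
Atp5pb and Wdr77, chr3:105959264-105959497: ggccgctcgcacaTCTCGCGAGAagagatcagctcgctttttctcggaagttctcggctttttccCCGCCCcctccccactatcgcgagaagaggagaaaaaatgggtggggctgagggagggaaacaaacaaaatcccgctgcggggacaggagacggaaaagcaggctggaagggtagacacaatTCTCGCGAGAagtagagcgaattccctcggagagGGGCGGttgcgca
Styxl1 and Mdh2, chr5:135778425-135778648: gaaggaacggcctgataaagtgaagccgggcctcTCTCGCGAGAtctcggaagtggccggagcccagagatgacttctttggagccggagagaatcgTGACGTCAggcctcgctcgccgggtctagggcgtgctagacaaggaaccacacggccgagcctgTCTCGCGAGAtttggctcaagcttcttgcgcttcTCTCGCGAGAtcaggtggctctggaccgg
Eif3k and Map4k1, chr7:28981891-28982049: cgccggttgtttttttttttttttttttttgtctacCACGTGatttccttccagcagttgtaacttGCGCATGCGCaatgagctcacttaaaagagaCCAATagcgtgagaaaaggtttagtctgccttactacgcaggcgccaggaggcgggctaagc
Clcn2 and Polr2h, chr16:20717747-20717825: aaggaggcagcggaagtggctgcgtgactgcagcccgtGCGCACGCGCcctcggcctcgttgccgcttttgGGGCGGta
Efcab11 and Tdp1, chr12:99884443-99884514: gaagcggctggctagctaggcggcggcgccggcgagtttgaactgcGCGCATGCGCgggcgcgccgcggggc
Dad1 and Abhd4, chr14:54253930-54254128: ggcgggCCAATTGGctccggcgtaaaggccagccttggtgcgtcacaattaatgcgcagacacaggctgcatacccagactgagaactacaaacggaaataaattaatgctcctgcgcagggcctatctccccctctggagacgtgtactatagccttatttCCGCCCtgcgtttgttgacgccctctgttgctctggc
Palb2 and Dctn5, chr7:122132981-122133040: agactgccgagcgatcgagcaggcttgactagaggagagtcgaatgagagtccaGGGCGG
Atm and Npat, chr9:53536829-53536888: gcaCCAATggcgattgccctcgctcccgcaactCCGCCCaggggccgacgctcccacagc
Wrap53 and Trp53, chr11:69580251-69580347: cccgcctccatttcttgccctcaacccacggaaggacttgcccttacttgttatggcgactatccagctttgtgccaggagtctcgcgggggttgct

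The summit of the Sdha and Ccdc127 site fell on base 15 of the 76 bases shown, between 2 copies of the relaxed NRF1 element that begin at bases 1 and 46. In the 234 bases between Atp5pb and Wdr77 the summit fell on base 81, and the BANP element begins at bases 14 and 188. The stretch between Styxl1 and Mdh2 holds this element 3 times, and the summit at base 158 lies 4 bases before the second copy, which begins at base 162. The Efcab11 and Tdp1 and the Eif3k and Map4k1 stretches hold the full NRF1 element, with CATG at its centre. No stretch of these 10 holds a p53 consensus element as searched here, and a match or its absence describes only these letters. Of 44 such stretches that were read, 2 hold it, between Gm2436 and Srp54b and between Psmb9 and the p53 target Tap1. The relaxed NRF1 form is in 13 of the 44 and the BANP element in 2, both of them shown above.

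Most of the sites lay at genes that face each other start to start. The strand of both nearest genes was given for 291 of the 383 sites, and 240 of these (82.5%, 95% Wilson interval 77.7 to 86.4) had their nearest gene ends as starts on opposite strands. Such facing starts make up 1005 of the 3128 close gene pairs with known strands (32.1%), where a close pair is any 2 protein-coding genes with an end of each at most 2 kb apart. The difference was 50.3 percentage points (95% Newcombe interval 45.3 to 54.6), not matched for the gap between the genes. The rule chose sites by distance to gene ends and used neither strand nor which end was near. Where strand was given, the nearest gene end was a start at 311 of 320 sites (97.2%). The same held at 1162 of 1215 3KR-only sites near a single gene (95.6%). The difference was 1.55 percentage points (−1.10 to 3.41), so lying nearest to a start was not particular to gene pairs. A further 41 sites (14.1%) lay where the end of a gene meets the start of the next on the same strand, and 2 sites lay between genes that end toward each other.

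Counted over gene pairs, a 3KR-only summit lay within 1 kb of an end of both genes at 391 of 4809 close pairs (8.13%, 7.39 to 8.94). That share was 24.1% (242 of 1005, 21.5 to 26.8) for facing starts. It was 5.1% (46 of 902, 3.84 to 6.74) where an end met a start on the same strand, and 0.191% (2 of 1048, 0.0524 to 0.693) where ends met. Facing starts were also the closer pairs, with a median gap of 165 bp against 545 bp for facing ends and 842 bp for an end and a start on the same strand. Among pairs at most 200 bp apart, an alternative added after the data were seen, a 3KR-only summit lay at 27.8% of facing starts (152 of 547). In the same class of gap it lay at 10 of 133 pairs of an end and a start on the same strand (7.52%, 4.14 to 13.3) and at 0 of 315 facing ends (Wilson upper bound 1.20%). Among the less common arrangements the shares were 18.6% of 43 pairs of starts on the same strand, 4.11% of 73 pairs of a start and an end on opposite strands, and 1.75% of 57 pairs of ends on the same strand. Pairs without a strand for both genes (1681) had a share of 5.29%, with 0.416% for shared and 0.0595% for WT-only summits. Where an end met a start on the same strand, shared summits were at 0.333% and WT-only summits at 0.111%.

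**Figure D1:**
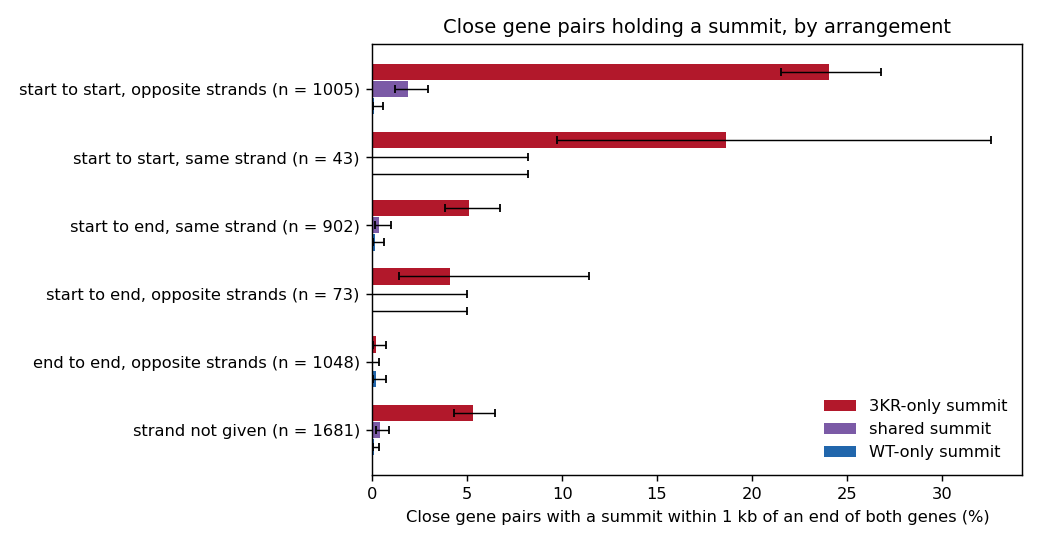
Share of close gene pairs (%) with a summit within 1 kb of an end of both genes, by the arrangement of the 2 nearest ends. Bars give 3KR-only, shared and WT-only summits, lines are 95% Wilson intervals, and n is the number of pairs. Facing starts reach 24.1% for 3KR-only summits, against 1.89% for shared and 0.0995% for WT-only summits, and end to end pairs reach 0.191%.

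The share at facing starts depended on the distance between them. From the 27.8% of starts at most 200 bp apart it went to 29.0% (67 of 231) from there to 500 bp, then 18.6% (22 of 118) for more than 500 and up to 1000 bp. Only 1 of 109 pairs with starts more than 1 kb and up to 2 kb apart (0.917%) had a 3KR-only summit within reach of both, where a summit must fall near the middle to meet the rule. Facing pairs whose annotated genes do not overlap had a share of 27.3% (176 of 645), and those that overlap at their starts 18.3% (66 of 360).

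A facing start held a 3KR-only summit more often than a start with no close neighbour, also when each start was counted alone. A 3KR-only summit lay within 1 kb of 497 of 1993 facing starts (24.9%, 23.1 to 26.9) and of 796 of 11785 starts of genes in no close pair (6.75%, 6.32 to 7.22). The difference was 18.2 percentage points (16.3 to 20.2). Starts of close-pair genes in other arrangements had a share of 11.3% (420 of 3713). A facing start has a second promoter nearby that can bring a summit within the same 1 kb, so the shares do not compare equal lengths of promoter.

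Summits shared by both lists had the same order at a lower level. Of the facing starts, 38 (1.91%) had a shared summit, against 57 starts of genes in no close pair (0.484%), a difference of 1.42 percentage points (0.889 to 2.13). WT-only summits lay at 2 facing starts (0.1%) and at 22 starts of genes in no close pair (0.187%), a difference of −0.0863 points with an interval from −0.207 to 0.186. Over all close pairs, 29 (0.603%) had a shared summit and 5 (0.104%) a WT-only summit within reach of both genes.

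The 383 sites are 20.8% (19.01 to 22.7) of the 1841 3KR-only summits within 1 kb of any protein-coding gene end. Of shared summits near gene ends, 29 of 149 (19.5%, 13.9 to 26.6) reached at least 2 genes, and the difference of 1.34 percentage points had an interval from −5.97 to 7.22. Of WT-only summits near gene ends, 5 of 54 (9.26%, 4.02 to 19.9) did, 11.5 points fewer (0.744 to 17.1). Shared and 3KR-only summits thus differed by less than counting error in how often they reached a pair, with an interval that still allows differences of several points in either direction.

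The lists differ in length, so they were also set side by side at equal length, a comparison with the WT list that was added after the data were seen. Of the highest scored 3KR summits, as many as the WT list holds, 105 of 1650 on assembled chromosomes (6.36%, 5.28 to 7.65) lay at 2 or more genes. In the WT list 34 of 1636 did (2.08%, 1.49 to 2.89), and the difference was 4.29 percentage points (2.93 to 5.70). Of the 105, 83 are sites that the rule chose for their absence from the WT list, so this difference is a description. Equal length also does not make the unknown depth and threshold of the lists equal. Within the 3KR-only summits the share at 2 or more genes ran between 4.90% and 8.91% over deciles of the 3KR list by score, with the highest decile at 6.29% and the lowest at 6.36%. These shares show no order with the score.

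The summits sat on the starts themselves. At the 240 facing-start sites the nearer start was 57.5 bp away at the median, 171 of them (71.3%) lay within 100 bp of it and 214 (89.2%) within 200 bp. Among 1162 3KR-only sites near a single gene whose start was the nearest end, 594 (51.1%) lay within 100 bp, 20.1 percentage points fewer (13.5 to 26.2). A second start nearby makes a short distance to the nearer one more likely, and the rule also chose on distance, so this difference is a description.

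**Figure D2:**
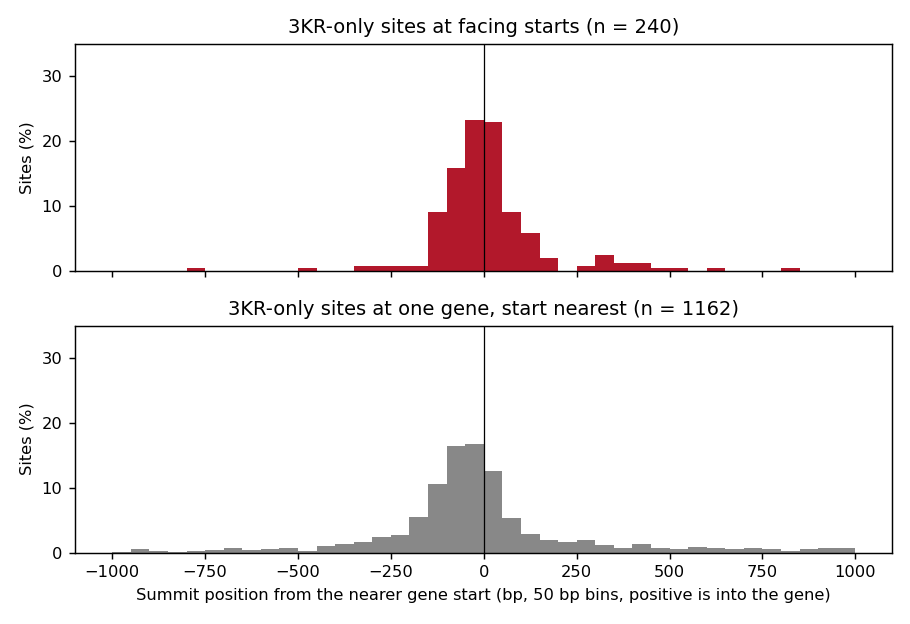
Position of the summit relative to the nearer gene start, in 50 bp bins, as a share of sites (%), for 240 facing-start sites above and 1162 3KR-only sites at a single gene below. Positive positions lie inside the gene. The median is −7 bp at facing starts and −42 bp at single genes. At facing starts of genes that do not overlap, the second start limits upstream offsets.

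Relative to the direction of the nearer gene, the median offset was −7 bp at facing starts (quartiles −64.5 and 48.3), where negative is upstream. At single genes it was −42 bp (quartiles −125 and 44). Summits fell inside the nearer gene at 114 of 240 facing-start sites (47.5%, 41.3 to 53.8) and at 423 of 1162 single-gene sites (36.4%, 33.7 to 39.2). Where facing genes do not overlap, a summit far upstream of one start lies nearer to the other start. This limits upstream offsets, so the differences in offset and in the share inside the gene are a description. Of the facing-start sites, 97 (40.4%, 34.4 to 46.7) lay between the nearest starts and the other 143 beyond one of them. At 63 of the 240 the annotated genes overlap.

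Hgs and Arl16, which face each other across 5 bp on chromosome 11, had their summit 0.5 bp from the midpoint, the nearest of any facing-start site. Hgs encodes an endosomal sorting protein and Arl16 a small GTPase of the ARF family. Itgb1bp1 and Cpsf3, and Lsm7 and Sppl2b, had summits 2.5 bp from the midpoint. Cpsf3 encodes the endonuclease that cuts transcripts at their poly(A) site and Lsm7 a subunit of the ring that binds U6 RNA. An end of both nearest genes, be it a start or a far end, lay within 200 bp of the summit at 193 of the 383 sites.

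Few sites had another summit nearby. No site had a WT summit within 1 kb, 3 had one within 10 kb, and the median distance to the nearest WT summit was 347990 bp. Other 3KR summits lay within 1 kb of 20 sites and within 10 kb of 54. The 383 sites fell on 373 different pairs of nearest genes, and 9 pairs had more than 1 site, with 3 at Hnrnpul2 and Ttc9c. In all 750 genes were reached, 374 sites reaching 2 genes and 9 reaching 3.

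The authors' peak score is the −log10 of a peak's p-value or of its q-value, and the sites spanned nearly the range of other 3KR-only summits at gene ends. Their scores ran from 2.57 to 63.6 with a median of 9.39 (quartiles 6.27 and 14.7). The 1458 3KR-only sites at a single gene had a median of 10.1 (quartiles 6.87 and 15.8), and the 3988 at no gene end had 9.39. The highest decile of the 3KR list held 22 of the 383 sites (5.74%, 3.82 to 8.54) and 102 of the 1458 single-gene sites (6.996%, 5.80 to 8.42). Shared summits at 2 or more genes scored higher, with a median of 35.7 over 29 sites (quartiles 19.7 and 49.7). Scores repeat: the 383 sites have 84 different values, and 31 share the value 5.69.

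**Figure D3:**
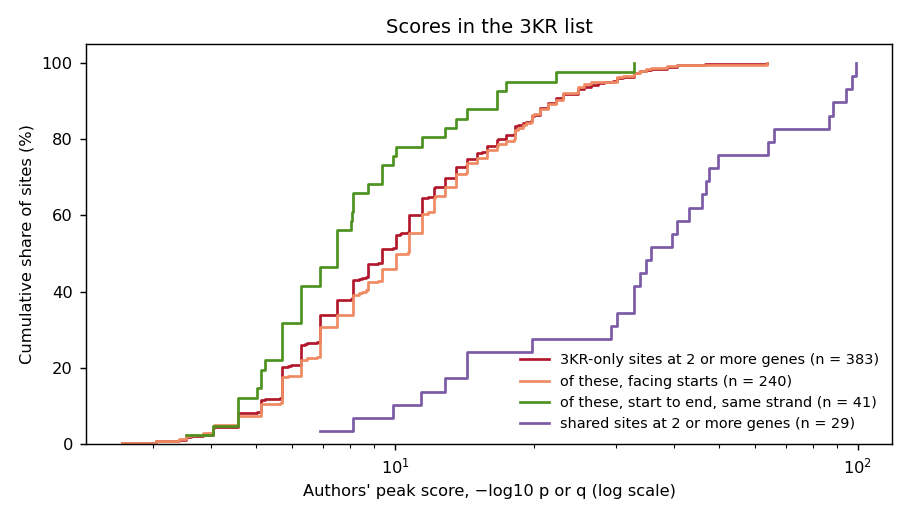
Cumulative share of sites (%) against the authors' peak score on a log axis, for all 383 sites, the 240 at facing starts, the 41 where an end meets a start on the same strand, and the 29 shared sites at 2 or more genes. The curve of shared sites lies to the right, with a median of 35.7 against 9.39 for the 383 sites.

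Sites at facing starts had a median score of 10.4 and sites where an end meets a start on the same strand 7.48. The highest score was at Ints13 and Fgfr1op2 on chromosome 6 (63.6, rank 125 of 6753), with the summit 354 bp from the start of Ints13, which encodes a subunit of the Integrator complex. Atp5pb, for a subunit of the stalk of mitochondrial ATP synthase, and Wdr77, for the partner of the methyltransferase PRMT5, shared a site of score 40.6. Sdha, for the flavoprotein subunit of succinate dehydrogenase, shared one of 35.7 with Ccdc127. Oard1, for an enzyme that removes ADP-ribose, and Nfya, for a subunit of NF-Y, shared one of 34.9.

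Other high sites joined genes of different roles. Tmem116 and Erp29, for a protein of the endoplasmic reticulum, scored 40.6, and Pbld2 and Hnrnph3, for an RNA-binding protein, 33.8. Trim23, Trappc13 and Shld3 lay within 293 bp of a single summit on chromosome 13 that scored 38.6. Trappc13 belongs to a vesicle tethering complex and Shld3 to shieldin, which protects DNA ends in repair. Cntrob, for a centriole protein, and Trappc1 shared a site of 32.9.

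Not all high sites were at promoters on both sides. At Esrra and Catsperz on chromosome 19 (32.9) the summit lay 141 bp from the start of Esrra, for an orphan nuclear receptor of mitochondrial genes, and 519 bp from the far end of Catsperz, for a sperm calcium channel protein. At Nat14 and Ssc5d (46.6) and at D230025D16Rik and B3gnt9 (38.6) the far end of the first gene was nearest. Strand was not given for Ssc5d and B3gnt9, so their near ends may be starts. Meiob, a meiosis gene, and Hagh, for a glyoxalase, had their site (33.7) at 196 and 203 bp. The lowest scores were at Calr3 and 1700030K09Rik (2.57), Eef1b2 and Ndufs1 (3.04) and Anapc16 and Ascc1 (3.04).

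Besides the Trim23 site, the highest scored sites with 3 genes in reach were at Rfxank, Borcs8 and Gm45929 (23.1), at Cyb5d1, Naa38 and Tmem88 (21.4), at Nup62, Il4i1b and Atf5 (18.1) and at Senp3, Tnfsf13 and Tnfsfm13 (17.4). Nup62 encodes a protein of the nuclear pore channel, Atf5 a stress response transcription factor and Senp3 a SUMO protease. Some of these additional genes are readthrough or predicted models. The starts of Borcs8 and Gm45929 lay at the same distance from their summit (203 bp). The far ends of Tnfsf13 and Tnfsfm13 lay at the same distance from theirs (530 bp). Among the 750 genes, 41 have predicted or clone names.

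The sites reached genes of nearly all the basic cell functions examined. Of all 21883 protein-coding genes 3.43% were reached, of the 7047 genes in a close pair 10.6%, and of the 1993 with a facing start 24.3%. The lists were made with earlier results of these data known, and genes of a pair share a summit, so counts are given without a test. Lists differ in how many of their genes have a facing start, so the count among those genes is given for the lists with the most of them and for some others.

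Chaperonins and heat shock proteins had 12 of 70 genes at a site (17.1%, 10.1 to 27.6), and 10 of the 18 with a facing start (55.6%). They included Cct3 with Tsacc (30.1) and Cct5 with Atpsckmt (15.8), for subunits of the cytosolic chaperonin, Dnajb4 with Fubp1 (18.1), and the mitochondrial chaperonin pair Hspd1 and Hspe1 (11.4). Hspd1 and Hspe1 face each other across 95 bp, and the summit lay 24 bp from the start of Hspd1.

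Splicing factors had 9 of 58 genes at a site (15.5%), and 6 of 11 with a facing start. They included Sf3a2 of the U2 particle with Plekhj1 (24.8), Lsm7 with Sppl2b (23.1) and Snrpd2, for a core Sm protein, with Qpctl (15.0). RNA polymerase subunits had 4 of 29 genes at a site (13.8%), among them the RNA polymerase II genes Polr2b with Noa1 (27.4), Polr2h with Clcn2 (18.9) and Polr2i with Tbcb (10.7). Translation initiation factors had 5 of 56, led by Eif3k with Map4k1 (24.8), Eif2a with Serp1 (10.1) and Eif5b with Txndc9 (7.48).

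Nuclear genes of the respiratory chain had 10 of 108 at a site (9.26%, 5.11 to 16.2), and 9 of the 32 with a facing start (28.1%), which is near the 24.3% of all genes so arranged. Besides Atp5pb and Sdha, Cox11, for an assembly factor that delivers copper to cytochrome c oxidase, shared a site of 20.6 with Stxbp4, 50 bp from its start. Mdh2, for the mitochondrial malate dehydrogenase, is not in the list and shared a site of 30.1 with Styxl1. It is shown for its sequence and was chosen after its values were seen. Mitochondrial ribosomal proteins had 7 of 78 genes at a site, and 5 of the 28 with a facing start (17.9%). They were led by Mrpl54 with Apba3 (22.2), Mrps18b with Ppp1r10 (11.4) and Mrps7 with Gga3 (10.7). Cytosolic ribosomal proteins had 5 of 80, led by Rpl7a with Med22 (12.8), Rps28 with Ndufa7 (12.8) and Rpl9 with Lias (6.27).

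**Figure D4:**
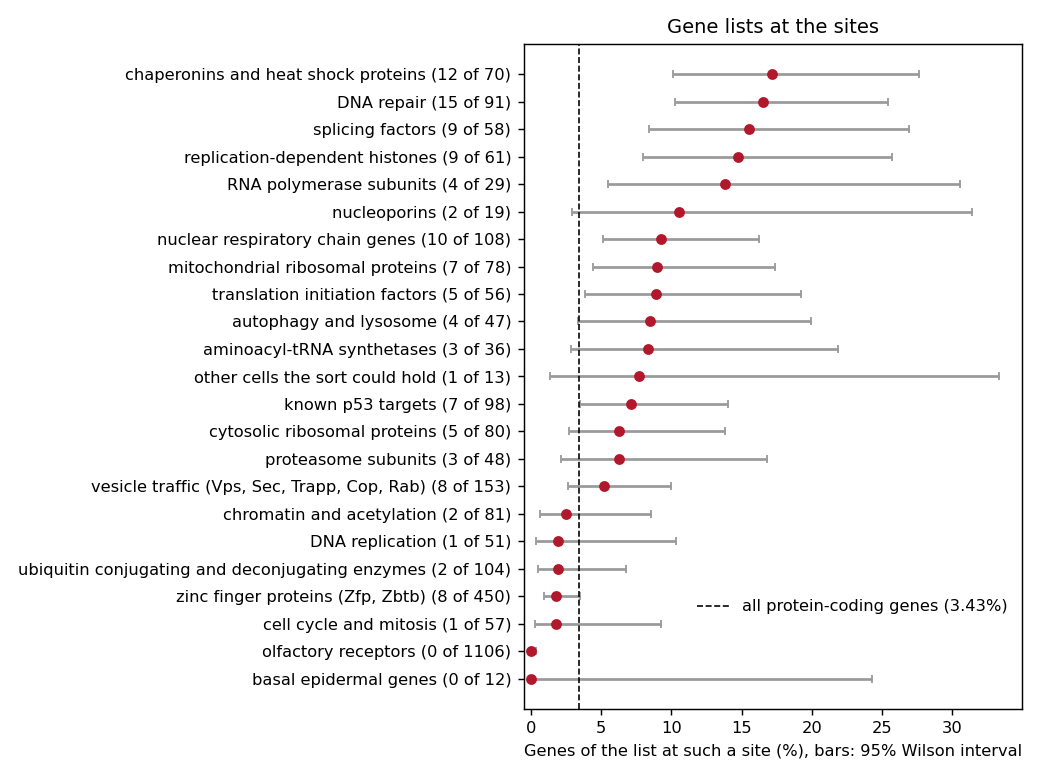
Share of the genes of each list (%) that lay at a 3KR-only site of 2 or more genes, with 95% Wilson intervals and counts in the labels. The dashed line is the share over all protein-coding genes, 3.43%. Chaperonins (17.1%), DNA repair (16.5%) and splicing factors (15.5%) are at the top, and olfactory receptors (0 of 1106, of which 19 stand in a close pair) and basal epidermal genes (0 of 12, of which 2 do) at the bottom.

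DNA repair had the most genes at the sites, 15 of 91 (16.5%, 10.3 to 25.4), with 11 of the 32 that have a facing start (34.4%). All genes so arranged had 24.3%, and the difference over so few genes was not tested. Mbd4, for a glycosylase that removes thymine from mismatches, shared a site of 21.4 with Ift122. Palb2, for the partner of BRCA2, shared one of 18.1 with Dctn5, and Mre11a, for the nuclease of the MRN complex, one of 16.6 with Ankrd49. Tdp1, for the enzyme that releases topoisomerase I from DNA, had its site (14.3) 6 bp from its start, as the sequence above shows. Further genes of the list at a site were Xrcc1, Atm, Mutyh, Lig4, Gtf2h4, Rad17, Brca1, Xpc, Polk and Fancm, with scores from 13.6 down to 5.69.

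Few genes of replication and division were reached. DNA replication had 1 of 51 genes (1.96%), Pcna with Cds2 at a score of 5.69, and cell cycle and mitosis 1 of 57 (1.75%), Npat with Atm. Of the genes with a facing start, these were 1 of 12 and 1 of 7. Chromatin and acetylation had 2 of 81, Kmt2b with Zbtb32 (6.27) and Smarcd2 with Tcam1 (5.13). Intervals of these small counts overlap the 3.43% of all genes.

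Replication-dependent histones had 9 of 61 genes at a site, among them H4c1 and H3c1 (10.7, strand not given for both), H4c18 and H2ac24 (9.88, the end of H2ac24 being near) and H2bc22 and H2ac22 (9.39, with facing starts). Of the histone genes with a facing start, 7 of 27 (25.9%) were at a site, near the 24.3% of all genes so arranged. Histone genes are near-identical copies, so the placing of reads among them is uncertain. Zinc finger genes named Zfp or Zbtb had 8 of 450 (1.78%), and 6 of the 36 with a facing start (16.7%). They were led by Zfp277 with Dock4 (12.1), Zfp664 with Ccdc92 (11.4) and Zfp526 with Dedd2 (10.7). Among smaller groups, aminoacyl-tRNA synthetases had 3 of 36 (Vars2 with Gtf2h4 at 8.10, Aars with Exosc6 at 6.87, Yars with S100pbp at 5.69) and nucleoporins 2 of 19 (Nup62, and Nup214 with Aif1l at 10.1).

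The proteasome list had 3 of 48 genes at a site, namely Psmg2, for an assembly chaperone of the proteasome, with Cep76 (8.74), Psmb9 with Tap1 (5.69) and Psme2 with Rnf31 (4.05). Autophagy and lysosome genes had 4 of 47, led by Atg3 with Slc35a5 (11.4), Gabarap with Phf23 (9.39) and Atg4b with Thap4 (8.10). Vesicle traffic had 8 of 153, and 5 of the 23 with a facing start (21.7%), led by Trappc13, Trappc1 and Rab1b with Klc2 (13.6). Ubiquitin conjugating and deconjugating enzymes had 2 of 104, Usp5 with Cdca3 (9.39) and Ube2m with Chmp2a (8.10).

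None of 12 genes typical of basal epidermis, such as Krt5, Krt14 and Itga6, lay at a site (Wilson upper bound 24.2%), and none of 1106 olfactory receptor genes did. Only 2 of the 12 and 19 of the 1106 stand in a close pair, so these lists could hardly be reached. Of 13 markers of other skin cells, Pmel, a melanocyte gene, was 654 bp from a site (10.7) that lay nearer to Rab5b, at 258 bp. A summit does not measure expression, so these lists do not check the sort.

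Among 98 known p53 target genes, 7 were at a site (7.14%, 3.50 to 14.02), and 6 of the 12 that have a facing start. Abhd4, for a lipase, shared the highest of these sites with Dad1, for a subunit of the oligosaccharyltransferase (20.6). The summit on chromosome 14 lay 60 bp from the start of Dad1 and 140 bp from that of Abhd4.

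Apaf1, for the scaffold of the apoptosome, and Ikbip start 6 bp apart and overlap, and their summit (10.7) lay 82 bp from the start of Apaf1. Sesn1, for an inhibitor of mTORC1 signalling, was 711 bp from a summit (10.7) that lay 5 bp from the start of Cep57l1. Polk, for a translesion polymerase, had its site (6.27) 7 bp from its start, with Cert1 as partner. Xpc, for the damage sensor of nucleotide excision repair, shared a site (6.27) with Lsm3. Tap1, for a subunit of the peptide transporter of antigen presentation, shared one (5.69) with Psmb9, for an immunoproteasome subunit.

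The gene of p53 itself was among the pairs. Trp53 and Wrap53, whose starts lie 98 bp apart on chromosome 11, shared a site of score 10.7, with the summit 3 bp from the start of Wrap53 and 101 bp from that of Trp53. The nearest WT summit was 341329 bp away. Wrap53 encodes a protein of Cajal bodies, and an antisense transcript from its gene overlaps Trp53.

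A list of 26 well-known neighbouring gene pairs, with 1 pair entered under both an older and a newer name, held 24 that are close pairs in this annotation, 2 of which end toward each other. Of these, 7 (29.2%, 14.9 to 49.2) had a 3KR-only site, near the 24.1% of all facing starts, and 14 had no summit of either list. Besides Hspd1 and Hspe1, Trp53 and Wrap53, and Tap1 and Psmb9, these included 3 pairs with a DNA repair gene that are described here. Palb2 and Dctn5 had their summit 5 bp from the start of Palb2 (18.1). Atm and Npat, for the damage kinase and the activator of histone genes, face each other across 61 bp and had theirs 3 bp from the start of Npat and 64 bp from that of Atm (12.1). Brca1 and Nbr1 (7.48) had theirs 66 bp from Nbr1 and 218 bp from Brca1. These scores lie inside the range of the 383 sites.

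Of the other textbook pairs, Polh and Xpo5, with the polymerase of UV damage bypass, had a shared summit of score 97.1 in the 3KR list, 6 bp from a WT summit. Tk1 and Afmid had a summit in the WT list alone, of score 10.3 there.

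The promoters at the sites were rich in CpG. The ratio of observed to expected CpG had a median of 0.887 over 535 promoter windows of facing-start genes at the sites, where a window is 250 bases before to 50 after a RefSeq start. It was 0.776 over 1866 windows of facing-start genes with no summit of either list near, 0.869 over 1234 windows at single-gene 3KR-only sites, and 0.567 over all 21262 windows. The median GC content was 62.7% at facing starts with sites and 60.7% at those with none.

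NRF1 is a factor of nuclear genes for mitochondria, and the relaxed form of its element was added after sequences of these same high sites had been seen, so its share is no independent evidence. This form was in 31.8% (170 of 535) of windows of facing-start genes at the sites and in 7.82% (146 of 1866) of facing-start windows with no summit, a difference of 24.0 percentage points (19.9 to 28.2). Over all windows the share was 6.38%. The full element, contained in the relaxed form, was in 6.36% of windows at facing-start sites, 1.02% of facing-start windows with no summit and 1.33% of all windows. The first of these exceeded the second by 5.34 points (3.48 to 7.76).

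The BANP element, also added after sequences had been seen, was in 5.42% of windows at facing-start sites, in 1.18% of those with no summit (difference 4.24 points, 2.51 to 6.53) and in 0.673% of all windows. Windows of 2 facing genes overlap, so a single match can count for both genes. Restricting the windows to a CpG ratio of at least 0.75 left 34.6% against 11.8% for the relaxed NRF1 element and 5.93% against 2.08% for the BANP element.

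**Figure D5:**
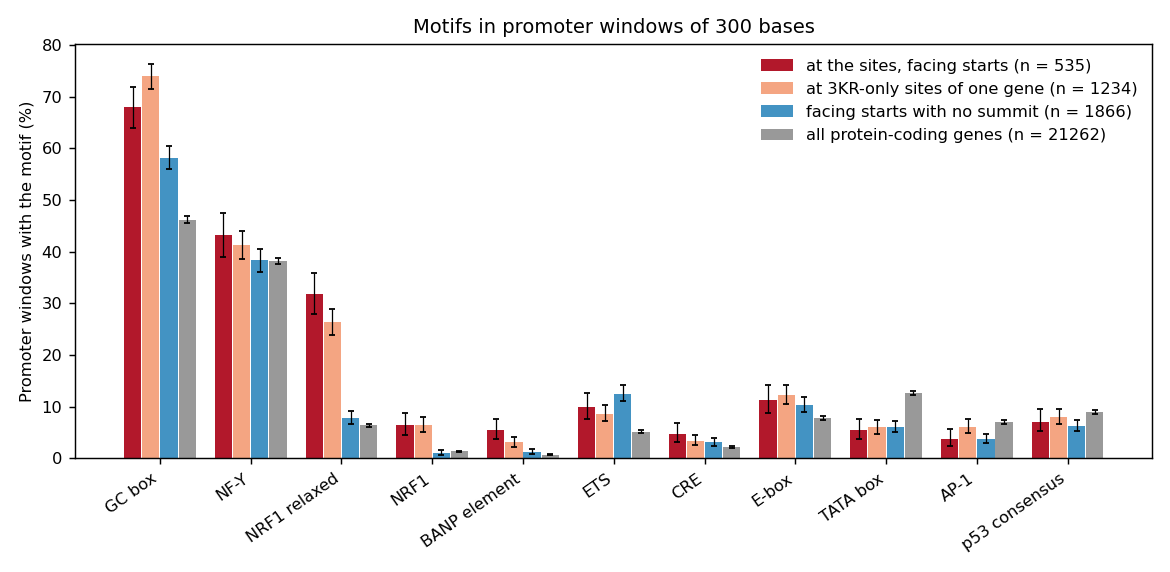
Share of promoter windows (%) of 300 bases with each motif on either strand, with 95% Wilson intervals, for facing-start genes at the sites, genes at single-gene 3KR-only sites, facing-start genes with no summit, and all protein-coding genes. The relaxed NRF1 element is at 31.8% and 26.3% in the first pair of groups and at 7.82% and 6.38% in the others, while the p53 consensus lies between 6.27% and 8.95% in these windows.

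The NRF1 and BANP letters were also present at 3KR-only promoters of single genes. The BANP element was in 4.88% of all windows at the sites and 3.08% at single genes, a difference of 1.80 points (−0.00667 to 3.93). The AP-1 letters TGANTCA were in 3.46% and 6.08%, a difference of −2.61 points (−4.49 to −0.511). The CRE was in 5.35% and 3.40%, a difference of 1.95 points (0.0533 to 4.17). The relaxed NRF1 element was in 26.3% of the 1234 windows at single genes, and all 635 windows at the sites had 30.1%. The difference was 3.74 points with an interval from −0.526 to 8.12. The GC box GGGCGG was in 68.0% of facing-start windows at the sites and 58.2% of those with no summit, a difference of 9.84 points (5.20 to 14.3), which was −1.95 points (−7.33 to 3.19) at a CpG ratio of at least 0.75. It was in 67.6% of all windows at the sites and 74.0% of those at single genes, a difference of −6.43 points (−10.9 to −2.09), against 46.2% of all windows. NF-Y (CCAAT) was in 43.2% of facing-start windows at the sites and 38.3% of those with no summit. The ETS letters CCGGAAGT were in 9.91% and 12.5%, a difference of −2.63 points (−5.39 to 0.530), and of −6.26 points (−9.82 to −2.27) at a CpG ratio of at least 0.75.

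The p53 consensus, 2 repeats of 10 bases each with up to 2 mismatches and a spacer of up to 13 bases, depended on which windows were compared. It was in 7.10% of windows at facing-start sites and in 6.27% of facing-start windows with no summit, a difference of 0.833 points (−1.40 to 3.53), and in 8.95% of all windows. In windows with a CpG ratio of at least 0.75 it was in 6.67% (27 of 405) and 4.16% (42 of 1010), a difference of 2.51 points (0.0217 to 5.56). The core CATG, which also lies inside the full NRF1 element, was in 52.7% and 53.9%. The TATA box TATAAA was in 5.42% of windows at facing-start sites, in 6.06% of those with no summit and in 12.6% of all windows. The AP-1 letters TGANTCA were in 3.74%, 3.80% and 6.99%, and in 4.44% against 2.28% of facing-start windows with a CpG ratio of at least 0.75. The CRE was in 4.67%, 3.11% and 2.23%.

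The other motifs searched were the following. The E-box CACGTG was in 11.2% of facing-start windows at the sites and 10.3% of those with no summit. The YY1 element was in 2.06% and 2.04%, and the ZNF143 element in 1.68% and 0.7503%. The cores of an adjoining pair of p53 repeats alone, without their flanks, were in 89.3% and 81.3%, a difference of 8.05 points (4.68 to 11.02), and in 75.1% of all windows. In windows with a CpG ratio of at least 0.75 that difference was 0.273 points (−3.48 to 3.55).

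Where the summit itself lay in a window, its distance to the nearest match was measured, at 269 sites. The relaxed NRF1 element was present at 108 of them, at a median of 33 bp from the summit, and within 50 bp at 76 (70.4%). The BANP element was at 17, with a median of 33.5 bp and 11 within 50 bp. Both of these forms were added after sequences of high sites had been seen. The cores of an adjoining pair of p53 repeats were at 243, with a median of 28.5 bp and 67.5% within 50 bp. CATG was at 169, with a median of 50.5 bp. The GC box was at 197, with a median of 46.5 bp and 51.3% within 50 bp, NF-Y at 129 with 51 bp, and ETS at 27 with 74.5 bp. Frequent letters are near any point by their number alone, so distances of different motifs are not compared with each other.

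The thresholds of the rule separate the sites from near neighbours as follows. The sites with the nearest WT summit were at Itpkc and Coq8b, 3362 bp away (score 6.39), and at Duxf3 and Gm4981, 5564 bp away (8.04). Just outside were Tcf19 and Cchcr1 (29.2), with a WT summit 132 bp away, and Gm4925 and Arl1 (8.10), with one 87 bp away. For the distance to the second gene, Mageb3 and Ctdspl2 (997 bp, score 9.39) and Usf1 and Arhgap30 (996 bp, score 4.58) were just inside. Ccna2, for cyclin A2, and Bbs7 (1001 bp, score 18.9) and Rras and Scaf1 (1003 bp, score 5.13) were just outside.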

How the data were processed

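The authors deposited a list of peak summits per genotype, each a single base with a name and a score, made per the submitters' processing notes with BWA and MACS2 on mm10, with no version given. The authors' score is read as a −log10 value, of the p-value or of the q-value. For the choice between them, the control, the threshold and the pooling, the sources used here give no statement. Depth per library is unknown, and more reads give more summits and higher scores.

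Summits were compared with the ends of 21883 protein-coding genes of a RefSeq table (GRCm38.p6). Strand came from the RefSeq promoter table, for 17491 of them (79.9%). The 43 3KR-only summits outside assembled chromosomes were left out. Shares have 95% Wilson intervals and differences Newcombe intervals (Python 3.11.15, pandas 2.3.3, numpy 2.4.6, statsmodels 0.14.6, matplotlib 3.10.9). The steps were tested on simulated data. The members and lists were chosen with earlier results of these data known. Genes named are those of the 12 highest scored sites, of up to 5 sites with 3 genes, all p53 targets and textbook pairs at a site, the top 3 of each other list, those beside each threshold, the 3 nearest a midpoint and the 3 lowest scored. Some genes that this rule names are not reported here. Alternatives varied the distances, the list length, the gene types, the ends and the motif windows.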

Additional observations from a re-analysis of the deposited data

How the results depend on the processing

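Of 115 alternative values, 85 stayed within the main interval or within 1.5 times the count and 30 moved. With the top 50% of the 3KR list by score, the number of sites was 174, the share of close pairs 3.78%, the median score 15.8, the share at facing starts 91.0% and list genes at a site 49 against 116, counted over all lists. With the 3KR list cut by score to as many summits as WT has, these were 83, 1.93%, 21.4, 88.7% and 19. With all gene biotypes there were 673 sites, a pair share of 5.82% and 31.3% of gene-end sites at 2 or more genes. With gene starts only these were 246, 23.0% and 16.4%, and 97.6% of the sites were at facing starts. With gene ends within 500 bp the share at facing starts was 88.4% and that of gene-end sites at 2 or more genes 18.8%, and with 2 kb 69.9% and 24.0%. The majority at facing starts held under each of these alternatives. With gene starts only it was largely set in advance, since no other gene end was counted. Moving the WT distance to 100 bp gave 384 sites, and adding mitochondrial sequence 384.

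Counting motifs on the strand of the gene alone, over all windows at the sites, gave 25.0% for NF-Y, 45.0% for the GC box, 4.57% for ETS, 2.83% for the TATA box and 19.5% for the relaxed NRF1 element. In windows that hold the summit, NRF1 was at 8.69% and its relaxed form at 40.4%. In the top 50% by score the relaxed form was at 37.3% and the BANP element at 7.46%. Both were added after sequences of the highest scored sites had been seen, so these shares are no evidence of a relation to the score. No paired analysis was possible because each list combines the libraries of its genotype and holds no value per library. For the same reason leaving out a replicate was not run. The unknown depth of the libraries limits every comparison of the lists.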
